A study of Homo sapiens and Mus musculus with 16 samples.

Results

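P-bodies of day-20 human neurons were compared with the cytoplasm of the same cultures in 4 of the 16 libraries of the series, 2 from sorted P-bodies and 2 from cytoplasm, chosen by their labels. The neurons were derived from UCLA4, a human embryonic stem cell line that carries EGFP-LSM14A at the AAVS1 locus, and were differentiated to day 20. Per the study's methods, neural progenitors were induced with CHIR99021, SB432542, LIF and Compound E in N2 and B27 medium, and neurons were then made in N2 and B27 medium with cAMP and vitamin C. All 4 libraries share that line and transgene, and the labels call their RNA polyA. Cells were lysed, nuclei were spun out, and the pellet of a second, faster spin was resuspended as the cytoplasmic fraction. Fluorescent LSM14A particles were sorted from this fraction, and an aliquot kept before sorting was the cytoplasm sample. The cytoplasm sample thus still held P-bodies and lacked what stayed in the supernatant of that spin. The labels number the replicates 1 and 2 but do not say that they are separate cultures, so each p-value measures the spread between these libraries, which may be technical. Liver bud progenitors, endoderm cells made from the same line and also labelled polyA, with 2 P-body and 2 cytoplasm libraries, served as the other cell type.

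P-bodies are cytoplasmic condensates of messenger RNA and protein that form without a membrane. They hold the decapping enzyme and its activators, the helicase DDX6, the scaffold protein LSM14A and proteins of microRNA silencing, and the mRNAs found in them are thought to be translated little while they stay there. In neurons, related granules hold mRNAs that are translated later or elsewhere in the cell, and microRNAs such as let-7, miR-9 and miR-124 hold down progenitor transcripts as neurons mature.

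The libraries held between 8638343 and 11474847 counts, and 3 counts, taken as the floor of detection, were worth from 0.261 to 0.347 CPM, where CPM are counts in a library brought to 1000000. CPM values of genes are given after TMM normalization, which corrects for differences in RNA composition. Replicates correlated across 10290 well-counted genes with a Spearman rho of 0.959 in P-bodies and 0.985 in cytoplasm. Ribosomal RNA genes took 13.4% and 11.4% of the counts in the P-body libraries and 24.9% and 21.5% in the cytoplasm libraries.

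The neuron label was checked against marker genes. All 12 neuron markers were well counted in the 4 libraries, and summed to 12294 and 12252 CPM in P-bodies and 14448 and 14704 CPM in cytoplasm. Among them DCX, a microtubule-binding protein of migrating neurons, had 4983 and 5177 CPM in cytoplasm, and MAP2, a dendritic microtubule protein, had 3185 and 3044 CPM. The 6 endoderm or liver markers summed to between 0.400 and 5.74 CPM, with AFP and ALB at or below the floor. Of these 6, HNF4A was called enriched, at 4.63 and 0.989 CPM in P-bodies against 0.378 and 0.300 CPM in cytoplasm. The 4 microglia or blood markers with a count summed to between 1.90 and 8.60 CPM. AIF1, HBG1 and OLIG1 were not among the genes analysed here, and OLIG2 and SOX10, which mark oligodendrocyte precursors, reached at most 0.221 CPM. Astrocyte markers summed to between 93.3 and 211 CPM, most of it SLC1A2, and GFAP lay between 2.43 and 9.0 CPM. Mesenchymal markers summed to between 51.9 and 122 CPM, neural crest markers to between 145 and 218 CPM, endothelial markers to between 12.3 and 47.3 CPM and pluripotency markers to between 17.2 and 37.2 CPM. Markers of cycling cells and of neural progenitors were present as well, MKI67 at 1081 and 1127 CPM and SOX2 at 72.0 and 63.8 CPM in cytoplasm. The 7 cycling markers summed to 3979 and 4222 CPM in P-bodies against 1568 and 1642 CPM in cytoplasm. Of these 5 were enriched and none was depleted, and CDK1 and AURKB were not called. The 8 progenitor markers summed to 1027 and 909 CPM against 675 and 637 CPM, but they did not move together. PAX6 and SOX2 were enriched, NES (126 and 98.5 CPM against 214 and 201 CPM) and SLC1A3 were depleted, and the others were not called. In such bulk libraries fewer cells of a type and less RNA per cell cannot be told apart. The part of these cells in the results was not tested.

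The first question was which transcripts of day-20 neurons were enriched in P-bodies. In the lists of mitosis, chromatin and DNA repair genes enriched members outnumbered depleted ones, and in those of synapses, ion channels, the neuronal cytoskeleton, adhesion, glycolysis and ribosomal proteins depleted members outnumbered enriched ones. With the quasi-likelihood test of edgeR and an adjusted p under 0.05, 3220 of 22093 genes (14.6%) passed on the P-body-enriched side and 3123 (14.1%) on the P-body depleted side. Because genes that are silent in neurons had counts in the P-body libraries, genes with a mean under 5 CPM over the 4 libraries were set apart as weakly counted. Of the 10290 well-counted genes, 2406 (23.4%) were enriched and 2976 (28.9%) depleted, with a median log2 fold change of -0.21. The change reached 2-fold in 1525 of the enriched and 1281 of the depleted genes. For 80.6% of the well-counted genes, both P-body libraries lay above or below both cytoplasm libraries. Without cytoplasm replicate 1 the well-counted calls numbered 1839 enriched and 1864 depleted. Scaling by library size alone raised the median log2 fold change of all genes by 0.16 and gave 2792 enriched and 2247 depleted well-counted genes, so the enriched share of these calls was 55.4% in place of 44.7%.

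The gene with the smallest p was PRTG (protogenin, chr15:55611544-55743152, minus strand, on hg38), an immunoglobulin-family receptor of the early neural tube. Its level was 973 and 1037 CPM in P-bodies against 93.1 and 91.7 CPM in cytoplasm, a log2 fold change of 3.44 ± 0.087 (SE, n = 2 libraries per fraction, edgeR adjusted p = 2.35e-10). ZBTB18 (chr1:244048547-244057476, plus strand), a transcriptional repressor of cortical neuron development, had 1994 and 1884 CPM against 247 and 240 CPM, a change of 3.0 ± 0.078. The replicates of each fraction lay close together for both genes. The rule for naming genes required fractions that did not overlap. DEPDC1 (chr1:68474152-68497221, minus strand), linked to mitosis, showed the largest change among the enriched protein-coding genes at or above 20 CPM on average and with separate fractions, with 179 and 197 CPM against 9.07 and 9.80 CPM and a log2 fold change of 4.32 ± 0.14. The kinetochore gene CENPF had 1257 and 1306 CPM against 237 and 252 CPM. The other genes with the smallest p were FGD4, a Cdc42 exchange factor, the arrestin-domain gene ARRDC3, the formin DAAM1, the transcription factor POU2F1, NCKAP5, ZNF146 and 5 chromatin genes (BAZ2B, CHD7, BAZ1A, ARID4A and EZH2), with log2 fold changes between 1.95 and 3.12. By size of change, KIF18A, FRMD6, CYYR1, MOSPD2, LIN28B, FAM111B, ZNF680 and THRB, the thyroid hormone receptor beta, followed, between 3.29 and 3.49. For THRB the levels were 78.2 and 58.2 CPM in P-bodies against 7.08 and 6.60 CPM in cytoplasm.

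Depleted genes changed less in size. LRP1 (chr12:57128483-57213361, plus strand), an endocytic receptor of lipoproteins, had 354 and 310 CPM in P-bodies and 1156 and 1078 CPM in cytoplasm, a log2 fold change of -1.75 ± 0.088 (edgeR adjusted p = 1.86e-08). KIF1A (chr2:240713761-240824293, minus strand), the kinesin that carries synaptic vesicle precursors along axons, had 471 and 427 CPM against 1403 and 1280 CPM. Both genes were lower in each P-body library than in either cytoplasm library, a separation that the rule for naming genes required. Among the 15 depleted genes with the smallest p were also the dynein heavy chain DYNC1H1, the actin crosslinker FLNA, the receptor phosphatases PTPRF and PTPRS, the latrophilin ADGRL1, the giant cadherins FAT3, FAT4 and DCHS1, the matrix proteins AGRN and NCAN, fatty acid synthase (FASN), the RNA polymerase II subunit POLR2A and YLPM1. DYNC1H1 had 1312 and 1297 CPM against 2919 and 2943 CPM, and AGRN had 120 and 117 CPM against 423 and 352 CPM. Among the genes with the lowest log2 fold changes were GLYCTK (-2.22 ± 0.22) and the pacemaker channel HCN3 (-1.99 ± 0.34), and also SPNS1, THOP1, ASTN2, CHPF2, COL3A1 and CDH24.

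**Figure D1:**
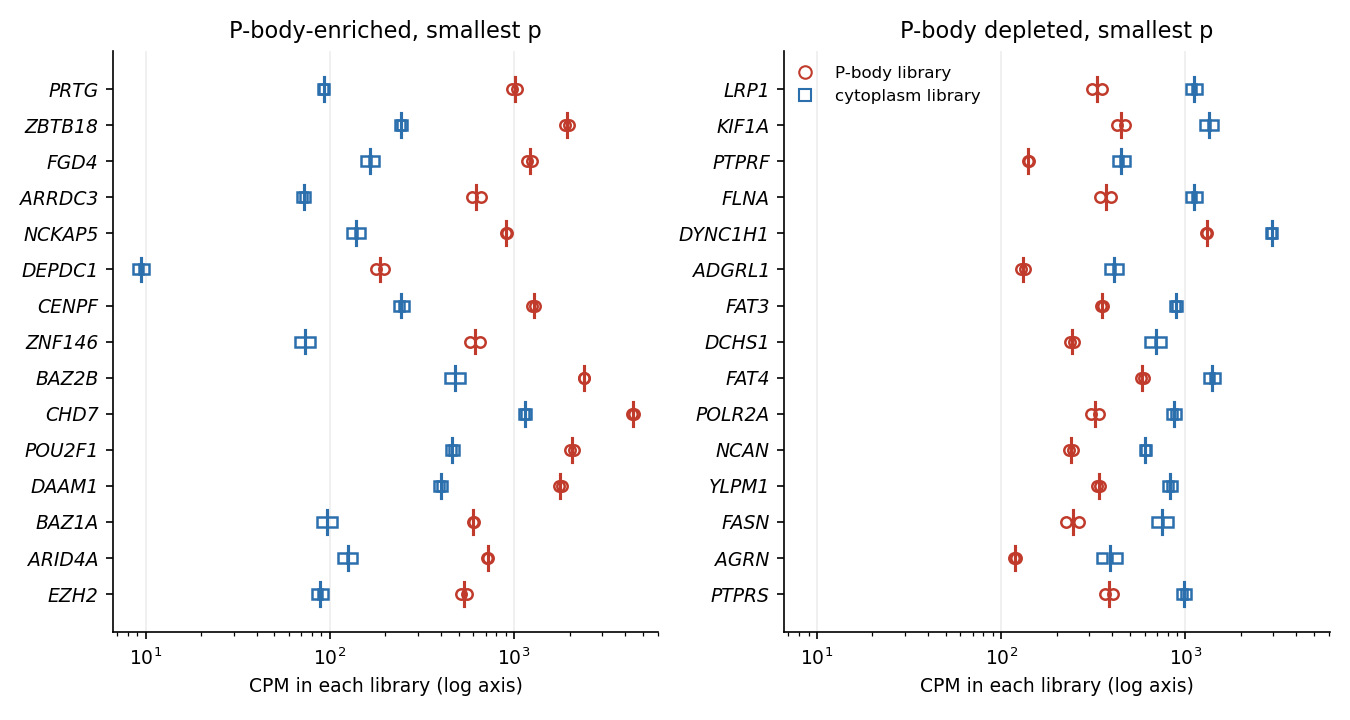
CPM (log axis) of the 15 enriched and the 15 depleted protein-coding genes with the smallest p in each of the 4 day-20 neuron libraries. Circles are P-body libraries, squares cytoplasm libraries and vertical ticks the mean of 2 libraries; genes were shown only if the fractions did not overlap, and PRTG lies at 973 and 1037 CPM against 93.1 and 91.7 CPM.

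Weakly counted genes behaved differently from the rest. Their 11803 genes had a median log2 fold change of 0.93, and 814 of them (6.9%) were enriched and 147 (1.25%) depleted. The median was 1.52 among 5010 genes under 0.5 CPM and 1.58 among 2321 genes from 0.5 to 1 CPM, -0.08 from 2 to 5 CPM, -0.27 from 5 to 20 CPM and -0.03 from 100 CPM upward. Of the 4970 genes with at most 3 counts in each cytoplasm library, 549 were called enriched, and 1 of these was well counted. Olfactory receptors, which are mostly silent outside the sensory epithelium, are a family within this group. Their 371 genes with a count summed to 385 CPM in each P-body library against 46.9 and 42.6 CPM in cytoplasm, none was well counted, 81 were enriched and none was depleted. Counts were found for 315 and 317 of them in the P-body libraries and for 159 and 146 in cytoplasm. Of 43 genes with the symbol of keratin-associated proteins, which are made in hair follicles, 3 weakly counted ones were enriched, and 36 and 31 had a count in the P-body libraries against 12 and 16 in cytoplasm. The well-counted one among them, the antisense RNA KRTAP5-AS1, was depleted, at 16.5 and 17.7 CPM against 40.9 and 29.6 CPM. Taste receptors had 1 enriched gene of 26 and beta-defensins 1 of 5. A count was found for 20 and 22 taste receptors in the P-body libraries against 21 and 20 in cytoplasm. For beta-defensins these numbers were 4 and 4 against 2 and 3. Weakly counted genes took 1.63% and 1.67% of the P-body counts and 1.11% and 1.16% of the cytoplasm counts. Of the 159 enriched long noncoding RNAs, 141 were weakly counted. The gene lists below are therefore described over their well-counted members.

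**Figure D2:**
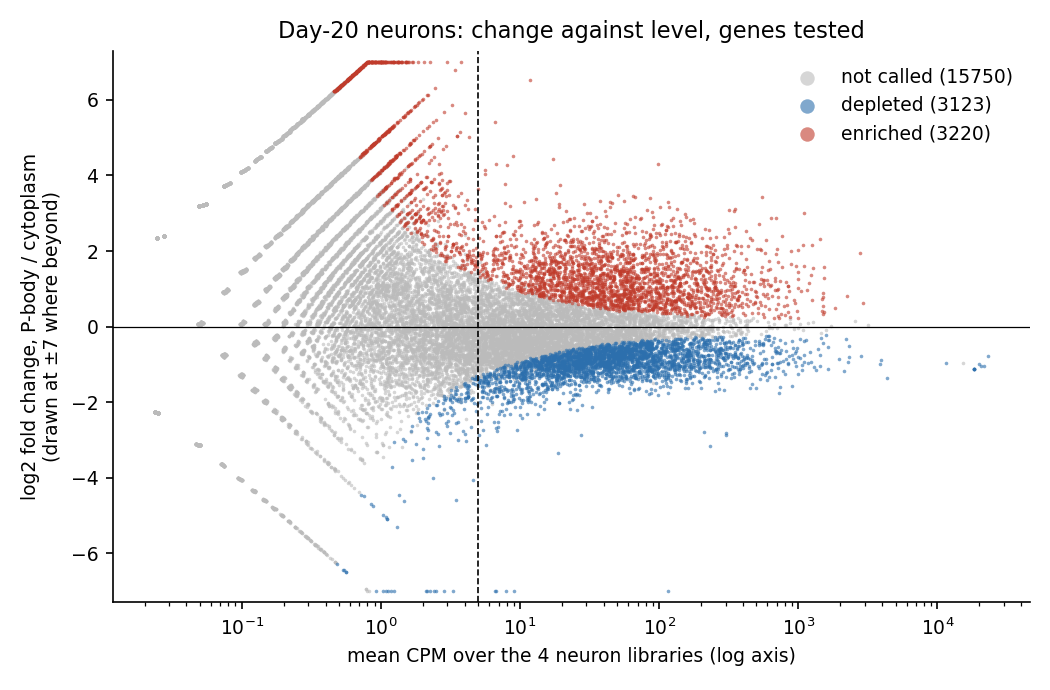
Log2 fold change of P-body over cytoplasm against the mean CPM over the 4 neuron libraries (log axis), 1 point for each of the 22093 genes tested. Red points are enriched, blue points depleted and grey points not called, and the dashed line marks 5 CPM; to its left enriched calls outnumber depleted ones, 814 to 147, and to its right depleted calls are the more numerous.

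Structural genes of the neuron were mostly depleted. Of the 28 genes of the neuronal microtubule and cytoskeleton list, 21 were depleted and 2 enriched, with a median of -0.78 against -0.21 over all well-counted genes. TUBA1A, the main alpha-tubulin of young neurons, had 2542 and 2649 CPM in P-bodies against 5075 and 5253 CPM in cytoplasm (log2 fold change -0.99 ± 0.064). DCX was at 2716 and 2798 CPM against 4983 and 5177 CPM, and MAPT, the axonal protein tau, at 196 and 174 CPM against 374 and 340 CPM. Each of these genes was lower in both P-body libraries than in either cytoplasm library. Fractions did not overlap for 80.6% of all well-counted genes. Neurofilaments did not follow. NEFM, the medium chain, was enriched at 2138 and 2126 CPM against 1467 and 1557 CPM (0.50 ± 0.068), and NEFH, the heavy chain, at 16.0 and 18.4 CPM against 4.25 and 4.50 CPM. NEFL, the light chain, was not called, at 1231 and 1184 CPM against 1117 and 1130 CPM, and neither was MAP2.

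The synapse lists leaned the same way. Of 27 synaptic vesicle and SNARE genes, 15 were depleted and 2 enriched. The vesicle glycoprotein SV2A had 161 and 140 CPM in P-bodies against 330 and 347 CPM in cytoplasm (-1.17 ± 0.099), and the active zone scaffold BSN had 162 and 115 CPM against 414 and 370 CPM. SLC17A6, which loads glutamate into vesicles, was enriched instead, at 137 and 143 CPM against 51.8 and 52.4 CPM (1.43 ± 0.12), as was the phosphatase SYNJ1. Of 22 glutamate and GABA receptor subunits 12 were depleted and none was enriched, with a median of -0.71. Among them were GABBR1, a subunit of the GABA-B receptor, with 130 and 118 CPM against 270 and 260 CPM, and the kainate receptor subunit GRIK5, with 35.3 and 39.3 CPM against 100 and 92.9 CPM.

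Of 28 voltage-gated ion channel genes 22 were depleted and 3 enriched, with a median of -0.83. Without cytoplasm replicate 1 or 2 the depleted ones numbered 14 or 13. The sodium channel subunit SCN3B had 69.2 and 55.9 CPM in P-bodies against 162 and 164 CPM in cytoplasm (-1.38 ± 0.13), and the T-type calcium channel CACNA1H had 69.4 and 58.7 CPM against 184 and 148 CPM. The enriched channel genes were the calcium channel subunit CACNB4, with 43.5 and 35.2 CPM against 12.1 and 13.1 CPM, and the potassium channels KCNA2 and KCNH7.

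Of 38 axon guidance ligands and receptors 22 were depleted and 9 enriched, the enriched share being close to that of all well-counted genes (23.4%). ROBO2, a Slit receptor, was enriched with 1034 and 1015 CPM in P-bodies against 454 and 442 CPM in cytoplasm (1.19 ± 0.075), whereas its paralog ROBO3 was depleted with 282 and 252 CPM against 648 and 576 CPM (-1.20 ± 0.093). EPHA7 had 272 and 254 CPM against 98.6 and 94.4 CPM, and EPHA4 had 388 and 466 CPM against 125 and 151 CPM. These 2 ephrin receptors of the A class and EPHA3 were enriched, while the B-class receptors EPHB1 and EPHB2 and 6 plexins, the semaphorin receptors, were depleted, PLXNB1 with 49.0 and 53.0 CPM against 156 and 151 CPM. Of 41 neural adhesion molecules 25 were depleted, among them NCAM1 with 1077 and 967 CPM against 2250 and 2196 CPM (-1.12 ± 0.075) and the seven-pass cadherin CELSR2, and 5 were enriched, PRTG first.

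Neuronal transcription factors had more enriched than depleted members, 11 and 5 of 34, with a median of 0.12. Beside ZBTB18, ST18, a zinc finger factor of differentiating neurons, had 551 and 554 CPM in P-bodies against 133 and 142 CPM in cytoplasm (2.0 ± 0.086). NEUROD4, a basic helix-loop-helix factor, had 191 and 192 CPM against 31.6 and 33.3 CPM. Proneural genes act early, in the passage from progenitor to neuron, and NEUROG2 and NEUROD1 were enriched as well. Without either cytoplasm replicate 3 members were depleted in place of 5. SOX12, ONECUT3 and MYT1 were depleted, SOX12 with 83.3 and 83.4 CPM against 173 and 157 CPM.

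Progenitor genes did not move as a group, with 9 enriched (23.7%) and 11 depleted (28.9%) of 38. Both shares and the median of -0.24 lay near those of all well-counted genes. Leaving out P-body replicate 1 gave 18 depleted members, and leaving out cytoplasm replicate 1 gave 7. PAX6, a master regulator of neural progenitors, had 393 and 404 CPM in P-bodies against 84.0 and 93.0 CPM in cytoplasm (2.17 ± 0.097). SOX2 had 238 and 198 CPM against 72.0 and 63.8 CPM, and LIN28B, which blocks let-7 maturation, 93.0 and 111 CPM against 11.1 and 9.30 CPM. PAX3, DACH1, LIN28A and the 2 Notch ligands JAG1 and DLL1 were enriched too. The receptors NOTCH1, NOTCH2 and NOTCH3 were depleted, NOTCH3 with 56.5 and 50.1 CPM against 191 and 168 CPM (-1.75 ± 0.12), and so were the intermediate filament NES, the transcription factor ZIC1, MSI1 and HMGA1. The depleted calls of SOX3, HES6, TCF7L1 and SLC1A3 and the enriched call of NR2F2 were lost without cytoplasm replicate 1.

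Of 34 neuronal RNA-binding proteins 12 were enriched and 15 depleted. The depleted members numbered 10 with DESeq2 and 7 without cytoplasm replicate 1, where 10 were enriched. Of the ELAV proteins, which bind AU-rich elements, ELAVL4 was enriched at 257 and 259 CPM in P-bodies against 120 and 124 CPM in cytoplasm (1.08 ± 0.095), ELAVL2 likewise, and ELAVL3 was depleted at 265 and 253 CPM against 455 and 429 CPM (-0.77 ± 0.084). Of the paralogs of FMR1, FXR1 was enriched at 156 and 167 CPM against 37.3 and 42.3 CPM (2.02 ± 0.12) and FXR2 was depleted at 34.1 and 43.6 CPM against 73.5 and 62.7 CPM (-0.81 ± 0.17). CPEB4, which controls the poly(A) tails of mRNAs, was also enriched, and CELF3 and NOVA2, which regulate splicing, were depleted. The median of the list, -0.09, turned positive with library size alone (0.08).

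**Figure D3:**
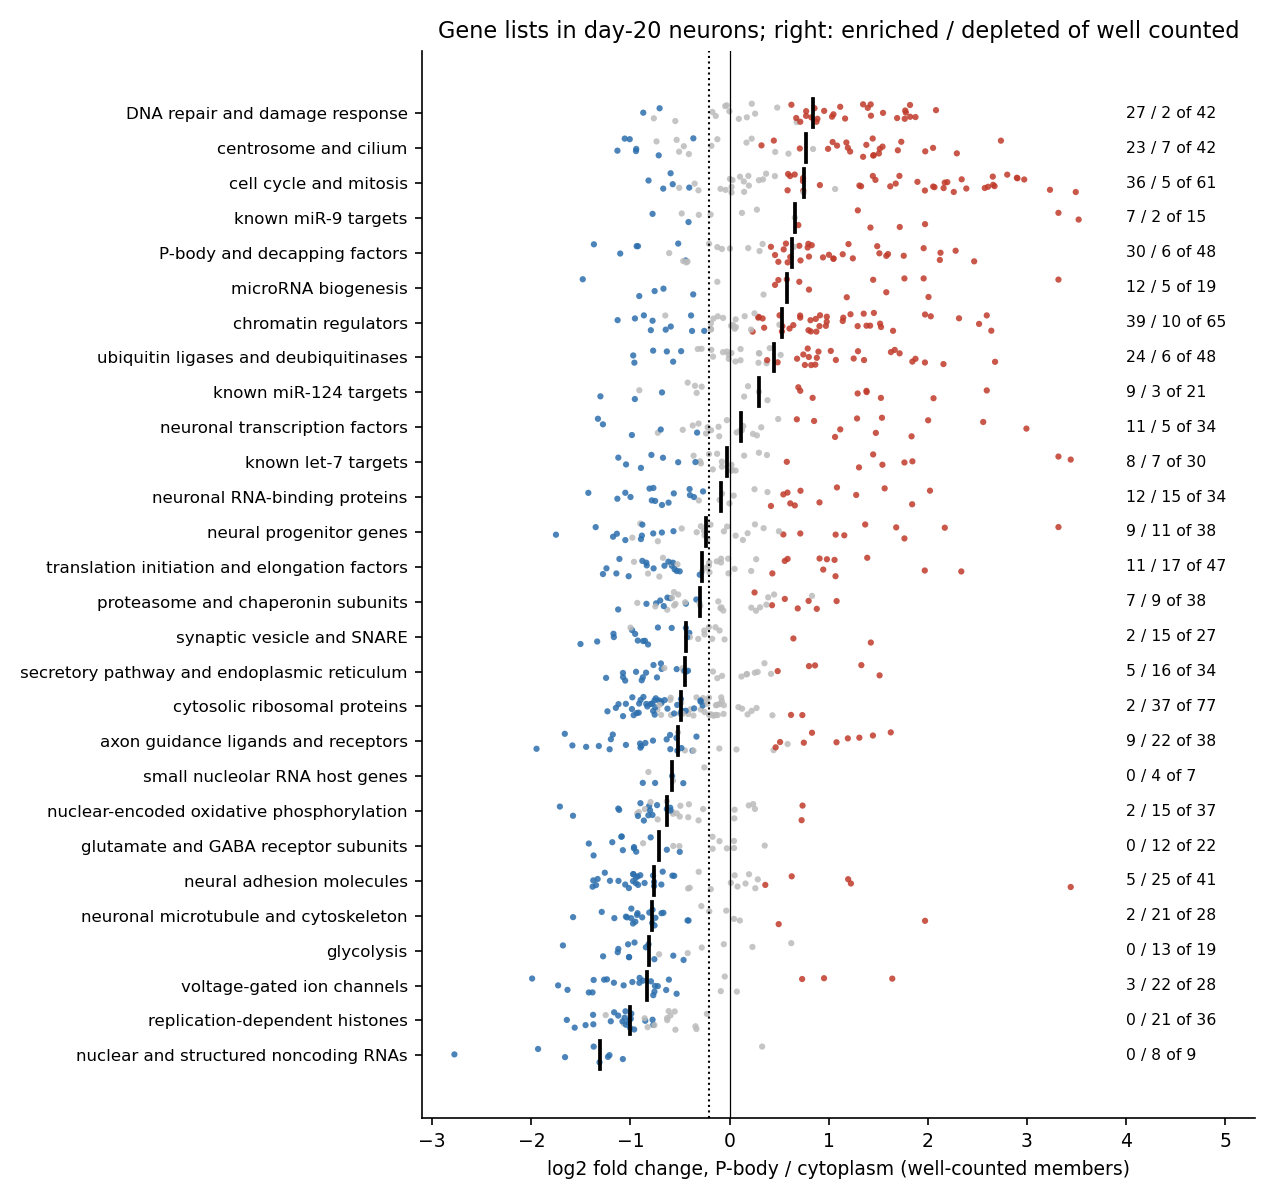
Log2 fold change of P-body over cytoplasm for the well-counted members of 28 gene lists in day-20 neurons, 1 point per gene, red enriched, blue depleted and grey not called, with a bar at each list's median. The solid line marks 0, the dotted line the median of all well-counted genes, -0.21, and the text on the right gives enriched and depleted members of the well-counted ones; medians run from -1.31 for nuclear and structured noncoding RNAs to 0.84 for DNA repair.

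Cell cycle transcripts were mostly enriched. Of 61 cell cycle and mitosis genes 36 were enriched and 5 depleted, with a median of 0.75. BUB1B, a kinase of the spindle checkpoint, had 270 and 282 CPM in P-bodies against 36.2 and 37.6 CPM in cytoplasm (2.90 ± 0.11). TOP2A, the topoisomerase that untangles mitotic chromosomes, had 787 and 841 CPM against 190 and 202 CPM, and the condensin subunit SMC4 had 259 and 283 CPM against 30.5 and 38.6 CPM. MKI67, the usual proliferation marker, rose less, from 1081 and 1127 CPM in cytoplasm to 1784 and 1905 CPM (0.74 ± 0.071). MCM5 and MCM7, subunits of the replicative helicase, were depleted, MCM7 with 130 and 132 CPM against 220 and 196 CPM. The other depleted members, MCM2, CDK4 and CDC25B, lost their calls with library size alone, and also when either cytoplasm replicate was left out, which left 2 depleted members.

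Genes that act on DNA and chromatin were enriched at high rates too. Of 42 DNA repair genes 27 were enriched and 2 depleted (median 0.84), BRCA1 with 351 and 417 CPM in P-bodies against 85.2 and 96.0 CPM in cytoplasm (2.08 ± 0.11) and the translesion polymerase POLK with 84.5 and 87.2 CPM against 25.0 and 25.0 CPM. Chromatin regulators had 39 enriched and 10 depleted of 65 (median 0.53). TET2, which oxidizes methylated cytosine, had 1570 and 1630 CPM against 396 and 387 CPM (2.03 ± 0.075), and EZH2, the methyltransferase of Polycomb, 516 and 555 CPM against 84.9 and 92.3 CPM. The remodeler SMARCA4 was depleted at 599 and 556 CPM against 1151 and 1088 CPM, as was KMT2D. Of 443 zinc finger genes of the C2H2 class, many of them repressors of transcription, 263 were enriched and 30 depleted, with a median of 0.93. ZNF146 had 578 and 650 CPM against 68.5 and 77.7 CPM, and ZNF423, a depleted member, 257 and 254 CPM against 516 and 482 CPM.

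Centrosome and cilium genes had 23 enriched and 7 depleted of 42 (median 0.78), and 3 or 4 depleted without cytoplasm replicate 1 or 2. Among the enriched ones was CEP135, with 92.3 and 106 CPM in P-bodies against 14.2 and 15.6 CPM in cytoplasm (2.74 ± 0.16). Ubiquitin ligases and deubiquitinases had 24 enriched and 6 depleted of 48 (median 0.45). The deubiquitinase USP37 had 170 and 186 CPM against 28.6 and 27.0 CPM, whereas the giant ligases UBR4, HUWE1, HERC1 and HERC2 were depleted, HUWE1 with 2085 and 2067 CPM against 3529 and 3558 CPM.

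P-body proteins' own transcripts were enriched as well. Of 48 genes for P-body and decapping factors 30 were enriched and 6 depleted (median 0.63). LSM14A (chr19:34172504-34229288, plus strand), the gene of the sorted scaffold, had 633 and 633 CPM in P-bodies against 139 and 150 CPM in cytoplasm (2.13 ± 0.086), but counts of the endogenous gene and of the EGFP-LSM14A copy cannot be told apart. DDX6 had 575 and 631 CPM against 206 and 224 CPM (1.49 ± 0.089), and DCP2, the catalytic decapping subunit, 89.9 and 106 CPM against 16.9 and 18.5 CPM. The silencing scaffold TNRC6A had 899 and 938 CPM against 239 and 234 CPM. EDC4, the scaffold of the decapping complex, was depleted at 42.3 and 30.7 CPM against 78.3 and 61.2 CPM (-0.94 ± 0.19), as was PAN2. The depleted members numbered 3 without cytoplasm replicate 1 and 2 without cytoplasm replicate 2, and EDC3, LSM2, CNOT9 and CNOT11 each lost their call without at least 1 of these libraries, CNOT9 with DESeq2 as well. In the microRNA pathway 12 of 19 genes were enriched and 5 depleted. The exporter XPO5 was depleted, as were the nuclear processors DROSHA and DGCR8, whose calls were lost with library size alone and without cytoplasm replicate 1, when 3 members were depleted. DICER1, AGO2, AGO3, AGO4 and the 3 TNRC6 genes were enriched. TUT4, which adds uridines to let-7 precursors, had 1454 and 1372 CPM against 351 and 352 CPM (2.01 ± 0.077), and ZSWIM8, a ligase in microRNA decay, 82.3 and 97.8 CPM against 272 and 231 CPM (-1.48 ± 0.12).

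Known microRNA targets were examined with the sequences below. The mature microRNAs, from RefSeq, are shown because their seeds, bases 2 to 8 in capitals, set the sites that were searched. No 2 of these seeds are the same.
let-7a-5p: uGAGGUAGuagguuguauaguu
miR-9-5p: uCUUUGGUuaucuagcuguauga
miR-125b-5p: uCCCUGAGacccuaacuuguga
miR-128-3p: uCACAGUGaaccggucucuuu
miR-302a-3p: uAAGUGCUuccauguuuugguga

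Of 30 known let-7 targets 8 were enriched (26.7%) and 7 depleted (23.3%), against 23.4% and 28.9% of all well-counted genes. Their median was -0.03, which turned positive with other scalings (0.14 with library size alone). The enriched ones were PRTG, LIN28B, LIN28A, TRIM71, NR6A1, NRAS, IGF2BP3 and DICER1. NR6A1, an orphan nuclear receptor of early embryos, had 70.3 and 72.7 CPM in P-bodies against 23.0 and 16.7 CPM in cytoplasm (1.85 ± 0.18), and TRIM71 had 46.4 and 47.3 CPM against 16.6 and 17.7 CPM. IGDCC3, a relative of PRTG, was depleted at 34.6 and 40.5 CPM against 68.0 and 62.0 CPM (-0.79 ± 0.16), and so was IGF2BP1 at 210 and 178 CPM against 247 and 247 CPM, a call lost with library size alone (edgeR adjusted p = 0.241) and without either cytoplasm replicate. Without either of these replicates 4 members were depleted in place of 7. A match to the full let-7 site, CTACCTCA, was present in the 3′ UTR of the canonical transcript in 6 of the 8 enriched, 5 of the 7 depleted and 4 of the 15 uncalled members. Some of these sites are printed in capitals with 11 bases on either side, from GENCODE 44 transcripts on hg38, to show that both sides of the comparison carry them.
PRTG (enriched), chr15:55619582-55619611, minus strand: ttgctgactatCTACCTCAgtttgcctccc
LIN28B (enriched), chr6:105078816-105078845, plus strand: ggttgcaaagtCTACCTCAtgcaagtatag
TRIM71 (enriched), chr3:32891972-32892001, plus strand: ttgcttaagtcCTACCTCAtctttattttt
IGDCC3 (depleted), chr15:65328206-65328235, minus strand: aaagaaaatgtCTACCTCAaggctcgctgg
IGF2BP1 (depleted, call lost with other scalings), chr17:49051065-49051094, plus strand: tgcgaagtaaaCTACCTCAaggtatgaagt

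Over all well-counted protein-coding genes with a 3′ UTR, let-7 sites were equally dense in enriched and depleted genes, 2.25 per 100 kb of 3′ UTR in both, and 2.09 in uncalled genes. The share of genes with a site was 6.17% of 2367 enriched, 4.66% of 4652 uncalled and 4.36% of 2846 depleted genes, while median 3′ UTR lengths were 2337, 1608 and 1365 bases in the same order. The site was present in 4.01% of all 17551 annotated 3′ UTRs. Sites of miR-9 (ACCAAAGA) had 2.49 and 2.27 per 100 kb in enriched and depleted genes and lay in 4.54% of all 3′ UTRs. For miR-125b (CTCAGGGA, 5.61% of all) the densities were 1.83 and 4.32, for miR-128 (CACTGTGA, 5.54%) 2.89 and 3.80, and for miR-302a (AGCACTTA, 3.62%) 2.55 and 1.53. The miR-125b site, the richest of these in G and C, was denser in depleted genes, and so was the miR-128 site. The 3′ UTRs of depleted genes had a median GC content of 50.8% against 35.4% in enriched genes. The part of base composition in these densities was not tested. Sites were read on the transcript strand, and matches of different motifs were allowed to overlap. Among targets of other microRNAs, 7 of 15 known miR-9 targets were enriched (46.7%) and 2 depleted (13.3%). The enriched ones included the neuronal gene repressor REST, at 81.7 and 99.3 CPM against 25.9 and 29.2 CPM. Of 21 known miR-124 targets 9 were enriched (42.9%) and 3 depleted (14.3%). Over all well-counted genes these shares were 23.4% and 28.9%, and the difference of these short lists from them was not tested.

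In most lists of translation and metabolism depleted members outnumbered enriched ones. Of 77 cytosolic ribosomal proteins 37 were depleted and 2 enriched, with a median of -0.49. Without cytoplasm replicate 1 the depleted ones numbered 20 and none was enriched. RPSA had 112 and 115 CPM in P-bodies against 220 and 209 CPM in cytoplasm (-0.92 ± 0.099), RPL3 had 557 and 510 CPM against 890 and 829 CPM, and RPLP2, an enriched member, had 34.9 and 50.0 CPM against 25.9 and 25.2 CPM. Of 47 translation factors 11 were enriched (23.4%, the share of all well-counted genes) and 17 depleted (36.2% against 28.9% over all well-counted genes). The subunit-joining factor EIF5B had 705 and 800 CPM against 140 and 157 CPM (2.34 ± 0.097), and the elongation factor EEF2 had 524 and 428 CPM against 1191 and 1060 CPM (-1.24 ± 0.10). Of 19 glycolysis genes 13 were depleted and none was enriched (median -0.82), GAPDH with 1403 and 1405 CPM against 2579 and 2462 CPM. Nuclear-encoded oxidative phosphorylation had 15 depleted and 2 enriched of 37, and the secretory pathway 16 and 5 of 34. Proteasome and chaperonin subunits had 9 depleted and 7 enriched of 38, both shares below those of all well-counted genes (28.9% and 23.4%). With DESeq2 9 oxidative phosphorylation genes were depleted and without either cytoplasm replicate 6, and 4 or 5 proteasome and chaperonin subunits, against 14 of these without P-body replicate 2. Without P-body replicate 1 the enriched secretory genes numbered 8.

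The lowest medians belonged to histones and structured RNAs. These libraries are labelled polyA, so counts of RNAs without a poly(A) tail may cover only part of their molecules. Of 36 replication-dependent histone genes, whose mRNAs end in a stem-loop in place of a poly(A) tail, 21 were depleted and none was enriched (median -1.0), or 11 depleted and 1 enriched without cytoplasm replicate 1. H4C5 had 366 and 366 CPM in P-bodies against 747 and 713 CPM in cytoplasm, a value that counting may have divided among near-identical histone copies. Of 9 nuclear and structured noncoding RNAs 8 were depleted. SCARNA2, a guide RNA of Cajal bodies, had 55.8 and 51.1 CPM against 392 and 341 CPM (-2.78 ± 0.11), RN7SK, which restrains transcription elongation, had 2429 and 2449 CPM against 6337 and 6285 CPM, and the nuclear RNA MALAT1 had 318 and 403 CPM against 762 and 910 CPM. MIAT, a long noncoding RNA of nuclear bodies, was also depleted, and so were 4 of 7 small nucleolar RNA host genes with none enriched. Enriched transcripts without protein-coding annotation were fewer and lower, LOC100507412 with 55.9 and 58.2 CPM against 7.93 and 6.30 CPM first among them, then ZNF271P, SRGAP2D, LOC100379224 and RNF144A-AS1. The ribosomal RNA copies RNA45SN2 and RNA45SN4, lower in P-bodies, share reads with near-identical copies and are not read further.

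Base composition ran through these lists. Over 9872 well-counted protein-coding genes, the GC content of the third codon positions (GC3, the codon base that can often change without changing the amino acid) had a median of 40.8% in enriched, 57.8% in uncalled and 70.0% in depleted genes. Its Spearman rho with the log2 fold change was -0.63 across genes, which share the libraries and are not independent, and the whole coding sequence (-0.62) and the 3′ UTR (-0.60) gave similar values, the 5′ UTR a weaker one (-0.28). When genes were put in 10 groups of equal size by GC3, 63.7% of the lowest group was enriched and 4.05% depleted, and 1.42% of the highest group was enriched and 52.6% depleted. GC3 also tracked the differences between replicates, with a rho of 0.203 for P-body 1 over P-body 2 and 0.376 for cytoplasm 1 over cytoplasm 2, and its part in the calls was not tested. Length had a smaller relation, with a rho of 0.0945 for the coding sequence and 0.222 for the 3′ UTR.

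**Figure D4:**
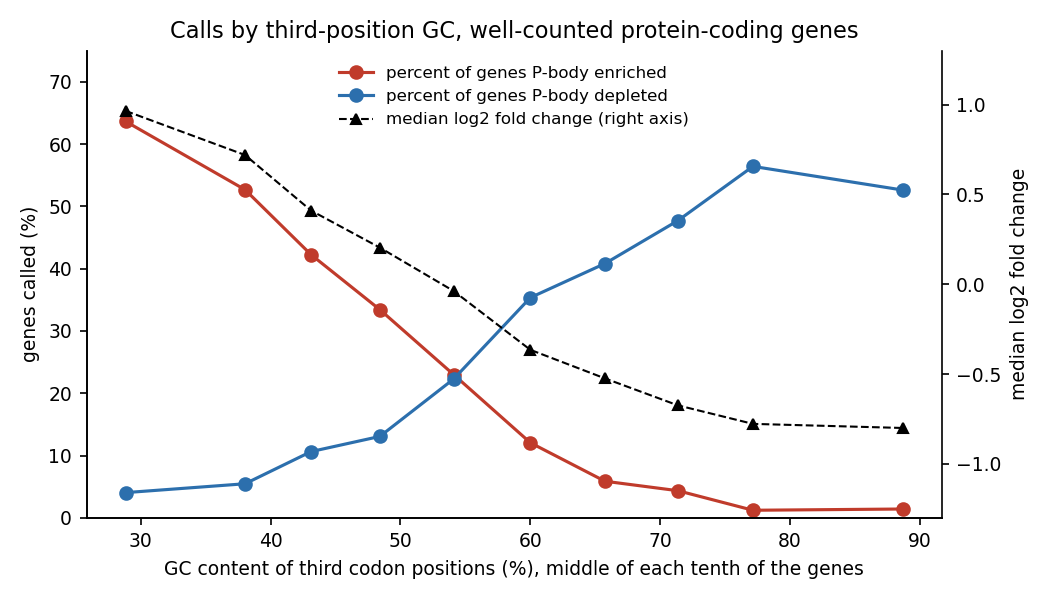
Share of genes called P-body-enriched (red) and P-body depleted (blue) and median log2 fold change (black triangles, right axis) in 10 equal groups of the 9872 well-counted protein-coding genes ordered by the GC content of the third codon positions, each drawn at the middle of its range. The enriched share falls from 63.7% to 1.42% and the depleted share rises from 4.05% to 52.6% between the lowest and the highest group.

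The same held within most lists. Enriched members had a median GC3 of 36.6% and depleted members 73.5% in the cell cycle list, 49.0% and 71.6% among axon guidance genes, 47.3% and 73.5% among neuronal RNA-binding proteins, and 38.1% and 74.4% among the C2H2 zinc fingers. Neuronal transcription factors were GC-rich on both sides, 66.4% and 88.3%. Among the other lists, SOX2 was enriched at 89.9% and FAT4 depleted at 42.9%. Ribosomal proteins went the other way, 60.3% in 2 enriched and 55.0% in the depleted members. FXR1 and FXR2, and ELAVL4 and ELAVL3, are paralogs on opposite sides that were chosen after their values were seen. Other such paralogs, ROBO2 and ROBO3 among them, were not compared in sequence, so the chosen pairs do not stand for all. The earliest stretch of 20 codons that encodes the same residues in both genes and lies in 1 exon is printed. The last base of each codon is in capitals, to show how these pairs differ in composition. The sequences are coding exons of the canonical GENCODE 44 transcripts on hg38.
FXR1 (enriched), chr3:180957821-180957880, plus strand: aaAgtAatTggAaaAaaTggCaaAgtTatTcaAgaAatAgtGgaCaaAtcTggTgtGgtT
FXR2 (depleted), chr17:7594286-7594345, minus strand: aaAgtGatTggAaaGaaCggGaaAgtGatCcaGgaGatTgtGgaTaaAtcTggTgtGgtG
ELAVL4 (enriched), chr1:50193765-50193824, plus strand: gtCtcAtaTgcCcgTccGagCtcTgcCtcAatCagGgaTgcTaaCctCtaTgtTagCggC
ELAVL3 (depleted), chr19:11458552-11458611, minus strand: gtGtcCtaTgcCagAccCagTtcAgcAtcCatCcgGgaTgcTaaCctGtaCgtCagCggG

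In the FXR pair 11 bases differed, all of them at the third positions, and 4 of 20 of the third positions were G or C in FXR1 against 11 in FXR2. In the ELAVL pair 14 bases differed, 12 of them at the third positions, of which 11 and 13 were G or C in ELAVL4 and ELAVL3. GC3 over the whole coding sequence was 31.0% in FXR1 and 58.3% in FXR2, and 60.2% in ELAVL4 and 80.7% in ELAVL3.

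A last comparison asked where neurons differed from liver bud progenitors in P-body enrichment. The interaction of fraction and cell type, tested over the 8 libraries of these cells, called 1517 of 10980 well-counted genes (13.8%) with higher and 1787 (16.3%) with lower enrichment in neurons. Without cytoplasm replicate 1 of the neurons 987 genes were higher, and without P-body replicate 1 or 2 of the neurons 3124 or 3212 genes were lower. Across 10540 protein-coding genes the log2 fold changes in the 2 cell types had a Spearman rho of 0.58, and both fell with GC3 (rho -0.59 in neurons and -0.62 in liver bud progenitors). Genes of translation and histones were among those with lower enrichment in neurons. In liver bud progenitors H4C3 had 890 and 779 CPM in P-bodies against 200 and 190 CPM in cytoplasm (a log2 fold change of 2.1), and in neurons 103 and 110 CPM against 217 and 225 CPM (-1.06), an interaction of -3.16 ± 0.11 (edgeR adjusted p = 3.05e-10). RPL4 had 2179 and 2085 CPM against 970 and 958 CPM in liver bud progenitors (1.15) and 394 and 414 CPM against 556 and 580 CPM in neurons (-0.49). Thus the direction differed between the cell types for both genes, and H4C5, EEF1A1 and the mRNA-binding protein YBX1 had the same pattern. Over the lists, 35 of 43 histones, 64 of 78 ribosomal proteins, 21 of 38 oxidative phosphorylation genes and 19 of 38 proteasome and chaperonin subunits had lower enrichment in neurons, and none of them higher. The median log2 fold change of the ribosomal proteins was 0.93 in liver bud progenitors and -0.49 in neurons.

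Higher enrichment in neurons was common among chromatin regulators, 42 of 65 with 1 lower, cell cycle genes, 31 of 62 with 1 lower, and microRNA biogenesis genes, 10 of 19 with 1 lower. PRTG had the smallest p, with 486 and 466 CPM in P-bodies against 318 and 308 CPM in cytoplasm of liver bud progenitors (0.61), an interaction of 2.83 ± 0.097. CHD7, a remodeler of neural crest and neural progenitors, had 713 and 763 CPM against 776 and 796 CPM there (-0.09) and 4361 and 4451 CPM against 1128 and 1157 CPM in neurons (1.95). ZBTB18, DEPDC1 and LSM14A completed the 5 genes with the smallest p, LSM14A at 1820 and 1802 CPM against 1447 and 1538 CPM in liver bud progenitors, where counts of the transgene are included again. Genes with higher enrichment in neurons had a median coding length of 2514 bases and those with lower enrichment 1056 bases, against 1566 bases in uncalled genes, and the part of length in these differences was not tested. With library size alone the median difference over all genes rose by 0.36, 2692 genes were higher and 877 lower, and 55 ribosomal proteins and 30 histones were still lower.

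**Figure D5:**
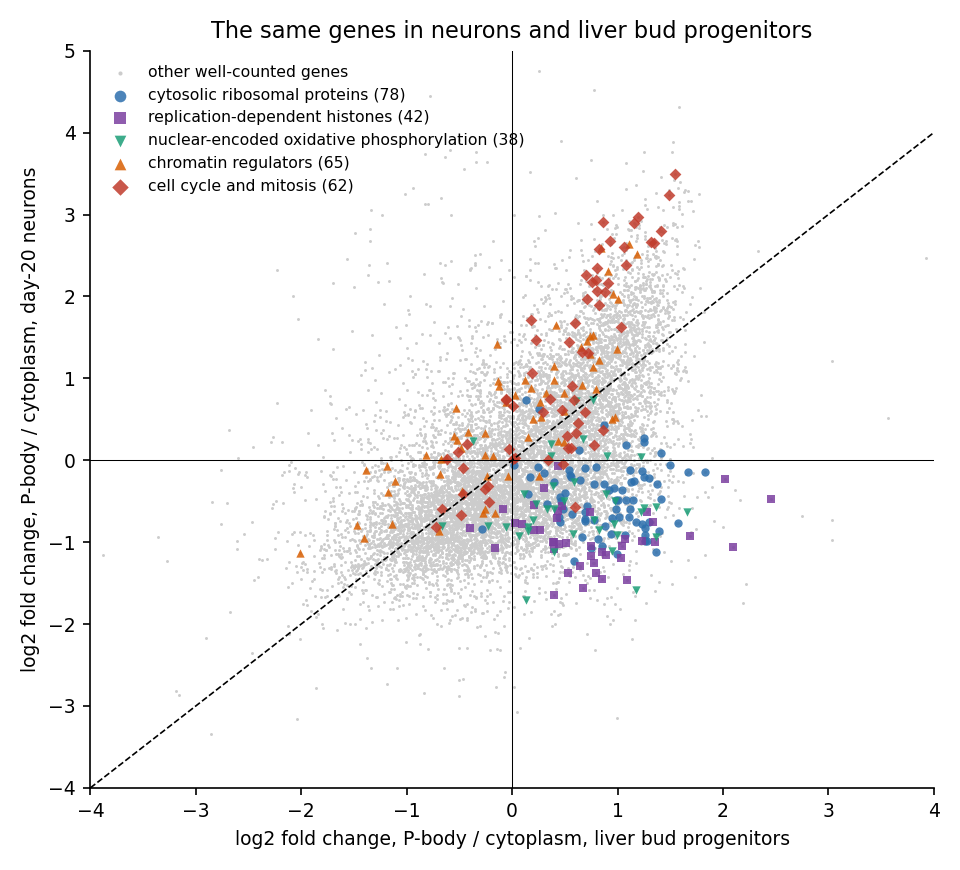
Log2 fold change of P-body over cytoplasm in day-20 neurons (vertical) against liver bud progenitors (horizontal), 1 point per gene well counted over the 8 libraries, with 5 gene lists in colour and the dashed line at equal values. Ribosomal proteins, histones and oxidative phosphorylation genes lie below the line, mostly right of 0 and below 0, and most cell cycle and chromatin genes lie above it; points beyond the axes are not drawn.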

How the data were processed

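P-body and cytoplasm RNA was counted in 4 day-20 neuron libraries, and 4 liver bud progenitor libraries entered 1 comparison. The authors deposited whole-number counts per gene symbol (hg38), with 22286 symbols in the human table. Per the study's methods, polyA libraries were made with a SMART-Seq kit, reads were aligned and counted or quantified with salmon, and the table does not say which pipeline made these columns. Genes with few reads over all samples had been removed. Tables of the authors' own comparisons (DESeq2 fold changes and adjusted p-values) were not used, nor were the mouse counts.

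The test between fractions was edgeR's quasi-likelihood test (version 4.0.16, run under R 4.3.3, with TMM scaling, genes with at least 1 count in the 4 libraries, no covariate, two-sided), with Benjamini-Hochberg adjustment over all genes tested and a threshold of 0.05. The SE is the size of the log2 fold change divided by the square root of the F statistic. Lists are described by counts and medians, with no set test. The members, the lists and the rule for naming genes were chosen with earlier results of these data known. The rule takes, per direction, the 15 protein-coding genes with the smallest p and the 10 with the largest change, out of called genes that average 20 CPM or more and whose fractions do not overlap, 5 genes without protein-coding annotation, 5 from the interaction, 2 to 4 members of each list, 5 genes the study followed and marker genes. No gene of the mitochondrial mRNA list was in the table. Some genes that the rule picks are not reported here. Annotation came from GENCODE 44, in which 20971 symbols (94.1%) matched. The chi-square per gene of replicate counts was 21.1 in P-bodies and 5.45 in cytoplasm, above sampling noise. Floors cover counting error only. Each count of genes called in neurons was made again with DESeq2 (version 1.42.0), and with edgeR scaled by library size alone or by RLE. It was also made with edgeR's filterByExpr filter or without any, over every human library at once and with a replicate block. Further runs left out ribosomal RNA genes or each neuron library, or took 1 or 20 CPM in place of 5 CPM. The interaction was not run without a filter, without ribosomal RNA genes, at 1 or 20 CPM or without a liver bud progenitor library. The other runs were made for the interaction too. The fits were tested on simulated counts.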

Additional observations from a re-analysis of the deposited data

Results flagged for a closer look

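Genes whose P-body enrichment differed between day-20 neurons and liver bud progenitors were set out for a closer look because the test of the difference itself (the interaction in edgeR's quasi-likelihood fit) called them. Well-counted genes with higher enrichment in neurons numbered 1517 and those with lower enrichment 1787. The log2 fold change in neurons minus that in liver bud progenitors was 2.83 for PRTG, 2.03 for CHD7, 2.13 for ZBTB18, 1.84 for LSM14A and 2.73 for DEPDC1. It was -3.16 for H4C3, -1.84 for YBX1, -2.36 for H4C5, -1.53 for EEF1A1 and -1.64 for RPL4. These 10 genes were picked by the rule for naming genes, as those with the smallest p of the interaction in each direction. All 10 kept their direction and their call under each alternative run for the interaction. With genes picked in this way from the same libraries, that says little about the other called genes. Groups of 2 libraries are too small to look for single libraries that stand apart.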

How the results depend on the processing

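The 714 genes followed were the named genes, the marker genes and only those list members that were called. That 670 of them were called thus comes from the selection, against 14.6% enriched and 14.1% depleted over all genes tested. None of these 670 genes reversed direction under any alternative run. All human libraries in a single fit gave 4936 depleted genes in place of 3123. For the interaction, library size only gave 2692 genes with higher and 877 with lower enrichment in neurons. Leaving out each library in turn, with the lone library of a fraction taken to vary like the other fraction, gave between 2109 and 4394 enriched and between 1892 and 4433 depleted genes over all tested. Among well-counted genes the ranges were 1839 to 2813 enriched and 1864 to 3851 depleted, with the lowest counts without cytoplasm replicate 1. In the interaction they were 987 to 1741 for higher and 1525 to 3212 for lower enrichment, the lowest without cytoplasm replicate 1 and the highest lower count without P-body replicate 2. The replicate block gave 3353 enriched and 3601 depleted genes, and same-numbered libraries deviated together with a correlation of 0.077, so the numbers were not taken as pairs. DESeq2 gave 3094 and 2485. Of these 670 genes 64 lost their call with DESeq2, 90 with library size only, 44 with RLE size factors and 167 without cytoplasm replicate 1. The medians of the neuronal RNA-binding proteins and the let-7 targets lay near 0 and changed sign with library size only. At 1 CPM in place of 5 CPM 2941 enriched and 3113 depleted genes were well counted, and at 20 CPM 1900 and 2280. With 2 libraries per fraction, genes near the floor of 3 counts have the least precise changes, and enriched calls among them rest on counts in the P-body libraries.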
